A study of Mus musculus with 6 samples.

Results

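The genes described here are the insulin-like growth factor (IGF) axis of the liver: the growth factor genes Igf1 and Igf2, the binding protein genes Igfbp1, Igfbp2, Igfbp3 and Igfbp4, the acid-labile subunit gene Igfals, the receptor genes Igf1r and Igf2r, and the growth hormone receptor gene Ghr. They were chosen by name from probes annotated to a single symbol. All 10 had 1 such probe each, out of 19938 genes with a probe in the table, and all 10 passed the minimum mean log2 signal of 5 that left 10977 genes for testing. Whole livers came from newborn C57Bl6/J mice, no more than 1 day old by the labels, which do not give their sex. The parents were 4 to 5 weeks old when they entered the study. The mothers ate isocaloric diets with 6 g% of oil, and the fathers ate chow except while mating, when they had the mothers' feed. In the ALA group the oil was from flaxseed, with alpha-linolenic acid at 31.6% in the labels. In the SFA group it was from coconut, with saturated fatty acids at 48.51%, and in the Control group it was from soybean. Each diet had 2 arrays, each of RNA pooled from 3 livers, and the labels do not say whether the pools of a diet held different litters. The labels also give an oleic acid share for a diet named RD, which they do not tie to a group.

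The liver is the main source of circulating IGF-I. Growth hormone binds its receptor on hepatocytes and, through the kinase JAK2 and the transcription factor STAT5B, drives transcription of Igf1 and Igfals after birth. IGF-II is the growth factor of fetal life, its mouse gene is expressed from the paternal allele, and its liver transcript is known to fall during postnatal growth. Both peptides travel bound to binding proteins, chiefly in a complex with IGFBP-3 and the acid-labile subunit. They signal through the type 1 receptor, whereas the type 2 receptor binds IGF-II and carries it to lysosomes.

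Igfbp1 and Igfbp3 are next to each other on mouse chromosome 11 and run towards each other, with 16136 bases between their annotated start sites and 0 annotated genes between them. The 250 bases before the start of both are shown because both had higher values on every ALA and SFA array than on either Control array. The same stretch is shown for Igf2, at the most downstream of its 4 annotated starts, and for Igf1r, since each passed the test in 1 comparison. Sequences are from RefSeq on GRCm38.p6, 5′ to 3′ along the gene. Capitals mark matches on either strand to 3 motifs. The first is CAAAACA, which is the core recognised by FOXO factors. The TATA box was searched as TATANA. The GC box was searched with the letters GGGCGG. Overlapping matches run together in 1 block of capitals.
Igfbp1 (chr11:7197537-7197786, plus strand): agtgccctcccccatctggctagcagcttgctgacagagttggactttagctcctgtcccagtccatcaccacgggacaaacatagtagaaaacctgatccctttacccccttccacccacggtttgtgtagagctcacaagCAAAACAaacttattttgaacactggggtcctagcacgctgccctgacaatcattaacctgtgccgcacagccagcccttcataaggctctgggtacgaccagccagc
Igfbp3 (chr11:7213924-7214173, minus strand): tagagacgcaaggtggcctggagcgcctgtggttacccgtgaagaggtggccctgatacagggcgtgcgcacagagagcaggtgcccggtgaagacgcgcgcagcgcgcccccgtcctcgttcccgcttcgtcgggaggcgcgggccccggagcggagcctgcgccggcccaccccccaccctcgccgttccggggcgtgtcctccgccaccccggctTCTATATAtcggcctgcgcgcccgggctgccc
Igf2 (chr7:142657497-142657746, minus strand): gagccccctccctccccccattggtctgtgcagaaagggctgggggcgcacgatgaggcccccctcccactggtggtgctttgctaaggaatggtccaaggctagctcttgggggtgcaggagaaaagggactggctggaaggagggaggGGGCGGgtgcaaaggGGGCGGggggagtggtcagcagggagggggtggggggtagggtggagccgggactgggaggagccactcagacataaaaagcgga
Igf1r (chr7:67952007-67952256, plus strand): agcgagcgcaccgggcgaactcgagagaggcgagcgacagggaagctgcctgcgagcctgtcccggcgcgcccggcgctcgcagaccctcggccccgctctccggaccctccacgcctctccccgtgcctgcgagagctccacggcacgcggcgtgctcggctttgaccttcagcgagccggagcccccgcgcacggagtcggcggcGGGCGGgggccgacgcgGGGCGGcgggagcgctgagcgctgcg

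The Igfbp1 stretch held the FOXO core 108 bases before the start, inside the element through which insulin is known to repress this gene. It was the only one of the 17 start windows of the 10 genes with that core, which 5.56% of all 32851 windows of this length hold. The Igfbp3 stretch had overlapping TATA patterns from 32 bases before the start (22.6% of all windows hold at least 1). The Igf1r stretch had 2 GC boxes and no TATA pattern, and 77.6% of its bases were G or C, against a median of 52.4% over all windows. The Igf2 stretch had 2 GC boxes, a motif found in 32.7% of all windows. The STAT5 pattern TTCNNNGAA occurred in 7.02% of all windows and, among the 10 genes, in those of Igfals only. There were 2 matches, and the one shown, in capitals, ended 50 bases before an annotated start.
Igfals (chr17:24878163-24878191, plus strand): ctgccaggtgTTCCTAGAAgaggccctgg

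Duplicate pools correlated across the 10977 genes, which are not independent replicates, with r from 0.977 to 0.986, against 0.927 to 0.964 between diets. The sex makeup of the pools, which the labels do not give, differed: the Y-linked gene Eif2s3y read 7.74 and 7.80 in the ALA pools, 4.11 and 3.79 in the SFA pools and 3.63 and 7.95 on Control arrays 1 and 2. Xist, which is expressed from the inactive X chromosome of females, read 3.76 and 4.24 in the ALA pools, 9.46 and 9.51 in the SFA pools and 10.67 and 8.34 on Control arrays 1 and 2. The ALA pools thus had Y-linked signal and little or no Xist, the SFA pools and Control array 1 the reverse, and Control array 2 had both. On the 3 arrays where Eif2s3y was lowest, 3 Y-linked genes read between 3.45 and 4.42, which gives a level for probes with little or no target. Diet and sex makeup cannot be told apart in the comparisons of ALA with SFA and of ALA with Control, and in that of SFA with Control the makeup differed on 1 Control array. The labelled tissue was borne out by 13 measured hepatocyte genes, with a mean log2 signal per array between 11.8 and 12.0 (albumin, Alb, from 12.6 to 12.8).

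Igfbp3 was higher on both diets, Igf2 on SFA and Igf1r on ALA, and the other 7 genes, Igf1 among them, passed in no comparison. In whole tissue, a different number of cells of a type and a different amount of RNA per cell cannot be told apart. Over the 3 diets, limma's moderated F test called 3 of the 10 genes at a Benjamini-Hochberg adjusted p below 0.05, namely Igfbp3 (adjusted p = 0.00274), Igf2 (adjusted p = 0.0169) and Igf1r (adjusted p = 0.0336). The background was 13.5% of all tested genes. In livers of ALA offspring, Igfbp3 and Igf1r rose and 0 genes fell, which is 2 of 10 where 7.93% of all tested genes were called, 5.11% as higher and 2.82% as lower. In livers of SFA offspring, Igf2 and Igfbp3 rose and 0 fell, again 2 of 10, with a background of 13.8% called, 6.62% as higher and 7.15% as lower. The share of SFA calls that were higher was 48.1%, and 66.1% after 75th percentile centring. The 75th percentile of the log2 signals was 6.68 and 6.63 on the SFA arrays and 6.75 to 6.77 on the others. On SFA 785 genes were called as lower, and 515 after this centring. Genes other than the 10 were not followed individually under it. Between the ALA and SFA diets, limma called 0 of the 10 (background 1.53%). There, 4 of the 10 had an unadjusted p below 0.05, as had 22.4% of all tested genes, and limma with trended and robust variance estimation, switched on together, called 1, Igfbp4. Both diets were compared with the same pair of Control arrays, so their differences from Control are not independent of each other.

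**Figure D1:**
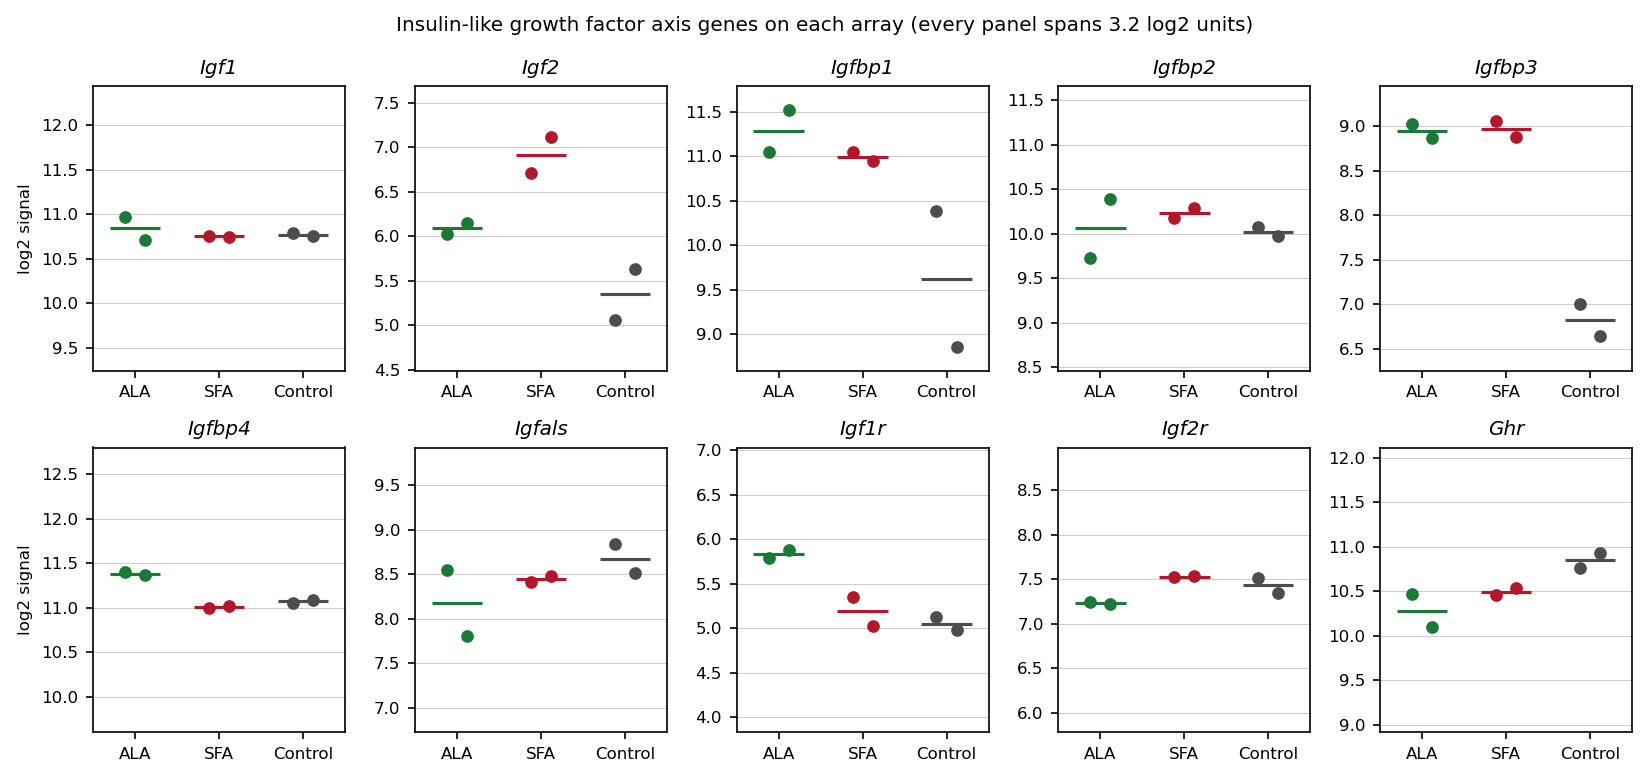
Log2 signal of the 10 IGF axis genes (vertical axes, every panel spanning the same range) on the ALA, SFA and Control arrays, with 1 point per array and a bar at the mean of each diet. Igfbp3 lies near 9 on all ALA and SFA arrays and near 7 in the Control pools, Igf2 is highest in the SFA pools and Igf1 is level.

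Of the growth factor genes, Igf1 (probe 10365559) read 10.97 and 10.71 in the ALA pools, 10.76 and 10.74 in the SFA pools and 10.79 and 10.75 in the Control pools. The diets overlapped in every comparison, and the ALA duplicates spanned all other values. The log2 difference was 0.069 for ALA against Control (SE 0.13, 95% interval -0.25 to 0.38) and -0.020 for SFA against Control (SE 0.13, 95% interval -0.33 to 0.30), with adjusted p of 0.794 and 0.935 in limma. ALA and SFA differed by 0.089 (adjusted p = 0.725).

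Igf2 (probe 10569344) read 6.03 and 6.15 in the ALA pools, 6.71 and 7.12 in the SFA pools and 5.06 and 5.64 in the Control pools. The 3 diets did not overlap, with SFA highest, ALA between and Control lowest. On SFA it rose by 1.57 on the log2 scale against Control, or 2.96-fold (SE 0.22, 95% interval 1.04 to 2.09, adjusted p = 0.00849 in limma, n = 2 arrays per group). The Control values were low, not far above the 3.45 to 4.42 of Y-linked genes in pools without Y-linked signal. The size of the Igf2 rise is therefore uncertain. On ALA the log2 difference from Control was 0.74 (SE 0.22, adjusted p = 0.0894), and between ALA and SFA it was -0.82 (SE 0.22, adjusted p = 0.104). Neither of these passed. Without SFA replicate 2 the SFA difference was 1.36 and was no longer called (adjusted p = 0.0534). With either Control array left out it was still called, at 1.28 and 1.85. In each fit without an array, the lone array of that diet was assumed to vary like the arrays of the other diets, which alone gave the spread.

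The binding protein genes differed among themselves. Igfbp3 (probe 10384223), which encodes the main carrier of circulating IGFs, read 9.03 and 8.86 in the ALA pools, 9.06 and 8.88 in the SFA pools and 7.01 and 6.64 in the Control pools. All ALA and SFA pools were above both Control pools, and ALA and SFA overlapped. The gene rose 4.35-fold on ALA (log2 difference 2.12, SE 0.16, adjusted p = 0.00246) and 4.43-fold on SFA (2.15, SE 0.16, adjusted p = 0.00181 in limma). ALA and SFA differed by -0.029 on the log2 scale (95% interval -0.42 to 0.36, adjusted p = 0.933). The rise was called under each of the 15 alternatives run, with log2 differences from 1.94 to 2.30 on ALA and from 1.97 to 2.33 on SFA when 1 array was left out.

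Igfbp1 (probe 10374223), a binding protein gene that insulin represses and fasting induces, read 11.04 and 11.52 in the ALA pools, 11.04 and 10.95 in the SFA pools and 10.39 and 8.85 in the Control pools. The Control duplicates were farther apart than any other pair of duplicates for these 10 genes, with an SD of 1.09. Its log2 difference from Control was 1.66 on ALA (SE 0.44, 95% interval 0.61 to 2.71, adjusted p = 0.068) and 1.37 on SFA (SE 0.44, 95% interval 0.33 to 2.42, adjusted p = 0.0844), so neither passed in limma. Between ALA and SFA it was 0.29 (adjusted p = 0.732). The differences from Control turned on the choice of Control pool. Without Control replicate 2 they were 0.89 and 0.61 and did not pass, and without Control replicate 1 they were 2.43 and 2.14 with adjusted p of 0.00945 and 0.0103. In both of these fits the wide Control spread no longer counted, and the SE was 0.23.

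Igfbp2 (probe 10347277), whose product is abundant in fetal serum, read 9.73 and 10.39 in the ALA pools, 10.18 and 10.29 in the SFA pools and 10.07 and 9.97 in the Control pools. The ALA duplicates enclosed all other values, and both SFA pools were just above both Control pools. The log2 differences from Control were 0.037 and 0.21 with an SE of 0.21 each, and neither passed (adjusted p = 0.938 and 0.531 in limma). ALA and SFA differed by -0.18 (adjusted p = 0.662).

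Igfbp4 (probe 10381096), whose product holds IGFs back from their receptor until it is cleaved, read 11.40 and 11.36 in the ALA pools, 10.99 and 11.02 in the SFA pools and 11.06 and 11.09 in the Control pools. Duplicates lay close together, and both ALA arrays were above all others by a small margin. The log2 difference was 0.31 for ALA against Control (SE 0.12, adjusted p = 0.155) and 0.38 for ALA against SFA (SE 0.12, adjusted p = 0.129), and neither passed. With trended and robust variance estimation together, both did (adjusted p = 0.04 and 0.039). For SFA against Control it was -0.066 (adjusted p = 0.725), and 0.029 after 75th percentile centring.

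Igfals (probe 10442625), which encodes the subunit that stabilises the circulating complex, read 8.55 and 7.81 in the ALA pools, 8.41 and 8.47 in the SFA pools and 8.84 and 8.51 in the Control pools. ALA overlapped with both other diets, and both SFA arrays lay just below both Control arrays. The log2 differences from Control were -0.50 on ALA (SE 0.24, adjusted p = 0.264) and -0.23 on SFA (SE 0.24, adjusted p = 0.553 in limma), and -0.27 between ALA and SFA (adjusted p = 0.551). The ALA difference was -0.13 without ALA replicate 2 and -0.87 without ALA replicate 1.

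**Figure D2:**
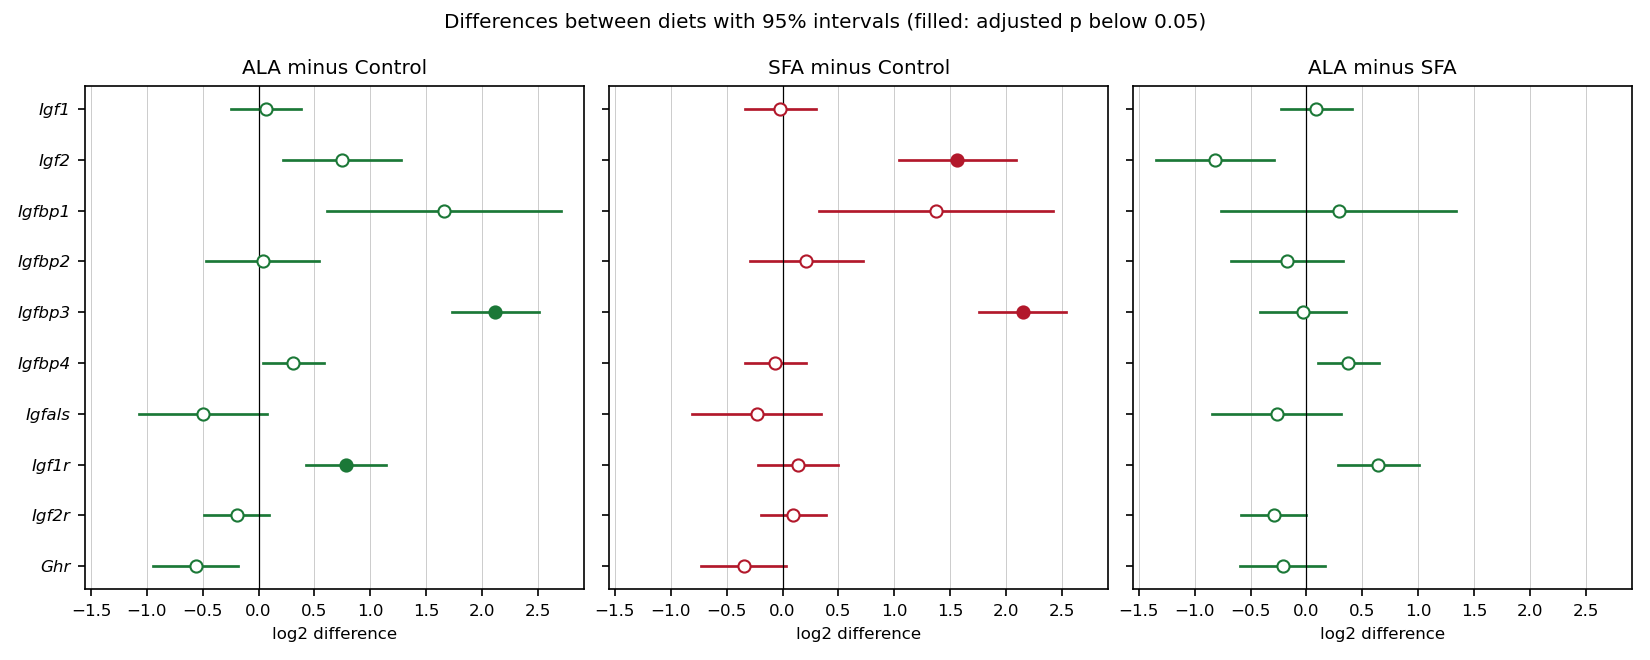
Log2 differences (horizontal axes) of the 10 genes, each diet minus Control and then ALA minus SFA, with limma's 95% intervals as lines and filled points where the adjusted p was below 0.05. Igfbp3 lies above 2 in both comparisons with Control, Igf2 passes on SFA and Igf1r on ALA, and the Igfbp1 intervals are the widest.

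Of the receptor genes, Igf1r (probe 10554094), the tyrosine kinase receptor of both growth factors, read 5.79 and 5.88 in the ALA pools, 5.36 and 5.02 in the SFA pools and 5.13 and 4.98 in the Control pools. The ALA arrays were above all others, and SFA overlapped with Control. The gene rose 1.72-fold on ALA against Control (log2 difference 0.78, SE 0.15, 95% interval 0.42 to 1.14, adjusted p = 0.0284 in limma). With the spread then taken from the other diets, the call was lost when either ALA array or either Control array was left out (log2 difference from 0.71 to 0.85, adjusted p from 0.0738 to 0.134). The log2 difference between ALA and SFA was 0.64 and did not pass (SE 0.15, adjusted p = 0.0838), nor did the 0.14 of SFA against Control (adjusted p = 0.573). The signals of this gene were low, near the range of the Y-linked genes in pools without Y-linked signal. Xist was near its lowest on both ALA arrays and high on both Control arrays, so sex makeup and diet cannot be told apart in this result.

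Igf2r (probe 10447799), the scavenger receptor of IGF-II, read 7.25 and 7.22 in the ALA pools, 7.52 and 7.54 in the SFA pools and 7.51 and 7.35 in the Control pools. The ALA pools were lowest and the SFA pools highest, by a narrow margin over Control. The log2 differences were -0.20 for ALA and 0.097 for SFA against Control and -0.29 for ALA against SFA (SE 0.12 each), with adjusted p of 0.378, 0.62 and 0.218 in limma.

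Ghr (probe 10427402) read 10.47 and 10.10 in the ALA pools, 10.46 and 10.53 in the SFA pools and 10.76 and 10.94 in the Control pools. Both Control arrays were above all ALA and SFA arrays. The log2 difference from Control was -0.56 on ALA (SE 0.16, 95% interval -0.94 to -0.19, adjusted p = 0.0783) and -0.35 on SFA (SE 0.16, 95% interval -0.73 to 0.029, adjusted p = 0.184), and neither passed. The ALA difference passed with trended and robust variance estimation together (adjusted p = 0.0277). ALA and SFA differed by -0.21 (adjusted p = 0.459).

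Counted together, the arrays of ALA and Control did not overlap for 7 of the 10 genes, against 55.0% of all tested genes. Of the 7, 5 were higher and 2 lower, against 27.0% and 28.0%. Those of SFA and Control did not overlap for 8 of the 10, against 64.2%, with 5 higher and 3 lower, against 28.6% and 35.7%. Those of ALA and SFA did not overlap for 5 of the 10, against 55.8%, with 3 higher and 2 lower, against 31.4% and 24.4%. These counts were made without centring, and the SFA arrays had the lowest 75th percentiles. Igfbp4, counted as lower on SFA against Control at -0.066, was at 0.029 after 75th percentile centring. The median log2 difference of the 10 genes was 0.19 on ALA and 0.12 on SFA, where the median of all tested genes was -0.012 and -0.050. Between ALA and SFA it was -0.10, and 0.037 over all tested genes.

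**Figure D3:**
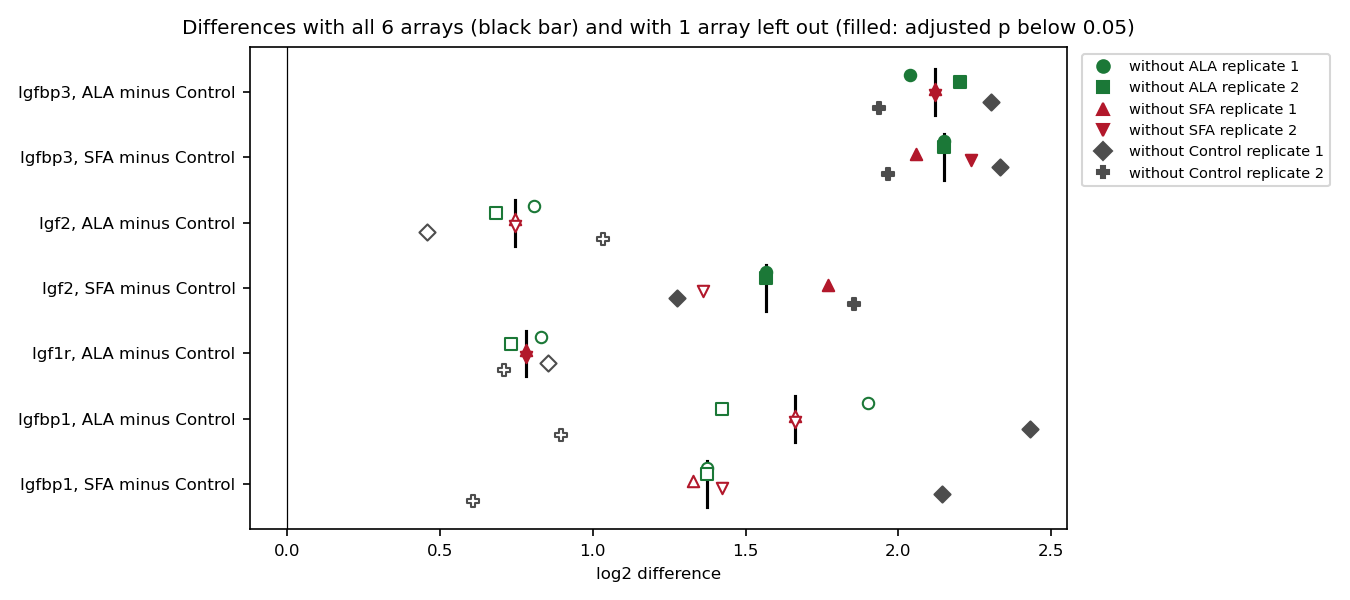
Log2 differences from Control (horizontal axis) of Igfbp3, Igf2, Igf1r and Igfbp1 with all 6 arrays (black bars) and with 1 array left out (symbols, filled where the adjusted p was below 0.05). Igfbp3 stays between 1.94 and 2.33 with every array left out, and Igfbp1 on ALA spreads from 0.89 to 2.43 with the choice of Control array.

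Many genes of other cells in the liver rose on both diets. Of 12 tested macrophage and Kupffer cell genes 12 rose on ALA and 9 on SFA. Of 14 endothelial genes 9 rose on each diet, and of 14 stellate cell and fibroblast genes 9 rose on ALA and 13 on SFA. Of 16 cell cycle genes 9 rose on ALA and 13 on SFA, and 0 genes of these 4 lists fell. Mki67, Top2a, Ccna2, Bub1b, Aurkb, Plk1, Cdc20, Kif11 and Rrm2 had Control means from 4.03 to 4.99, below the signal minimum of 5. So had the stellate cell gene Des, at 4.71. These genes passed the filter through their ALA and SFA arrays, so the filter favoured rises in the counts and in the list means given below. Of 3 bile duct genes 1 rose on ALA and 0 were called on SFA, where 0 also had an unadjusted p below 0.05. Of 13 hepatocyte genes 0 were called on either diet in limma, where 1 had an unadjusted p below 0.05 on ALA and 2 on SFA. Over all tested genes 7.93% were called on ALA and 13.8% on SFA, and 24.7% and 31.9% had an unadjusted p below 0.05.

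The mean log2 signal of the macrophage list was between 8.32 and 8.70 in the ALA pools, between 8.30 and 8.34 in the SFA pools, and between 7.29 and 7.39 in the Control pools. That of the endothelial list was between 8.19 and 8.26 on ALA, between 7.89 and 7.90 on SFA, and between 6.82 and 7.38 on Control. That of the stellate cell list was between 7.45 and 7.53 on ALA, between 7.50 and 7.55 on SFA, and between 6.23 and 6.61 on Control. All 3 lists were thus higher on every ALA and SFA array than on either Control array, as Igfbp3 was. Igfbp3 is known in rat liver as a product of non-parenchymal cells, and the part of these cells in its rise was not tested. The cell cycle list had the same order of diets as Igf2, with means of 5.88 and 7.01 in the ALA pools, 7.27 and 7.12 in the SFA pools, and 4.99 in both Control pools. So had the mean of the erythroid list, at 6.73 and 6.85 on ALA, 7.08 and 7.05 on SFA, and 5.51 and 5.93 on Control. Of its 16 genes 5 were tested, and 2 of these rose on each diet. Over all tested genes 5.11% rose on ALA and 6.62% on SFA. The erythroid gene Slc4a1 had a Control mean of 4.75, below the signal minimum, and passed the filter through its ALA and SFA arrays. Hba-x went the other way, with log2 differences of -0.42 on ALA and -0.23 on SFA. Alas2 overlapped between ALA (8.49 and 8.85) and Control (6.48 and 8.54). The mean of the 6 tested megakaryocyte genes, of 11 listed, also had the order of diets of Igf2. Of these 6, 3 rose on each diet, and Itga2b had a log2 difference of -0.030 on SFA. The filter favoured low Control means in the cell cycle and erythroid lists. The part of the cell cycle, erythroid and megakaryocyte lists in the Igf2 values was not tested.

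**Figure D4:**
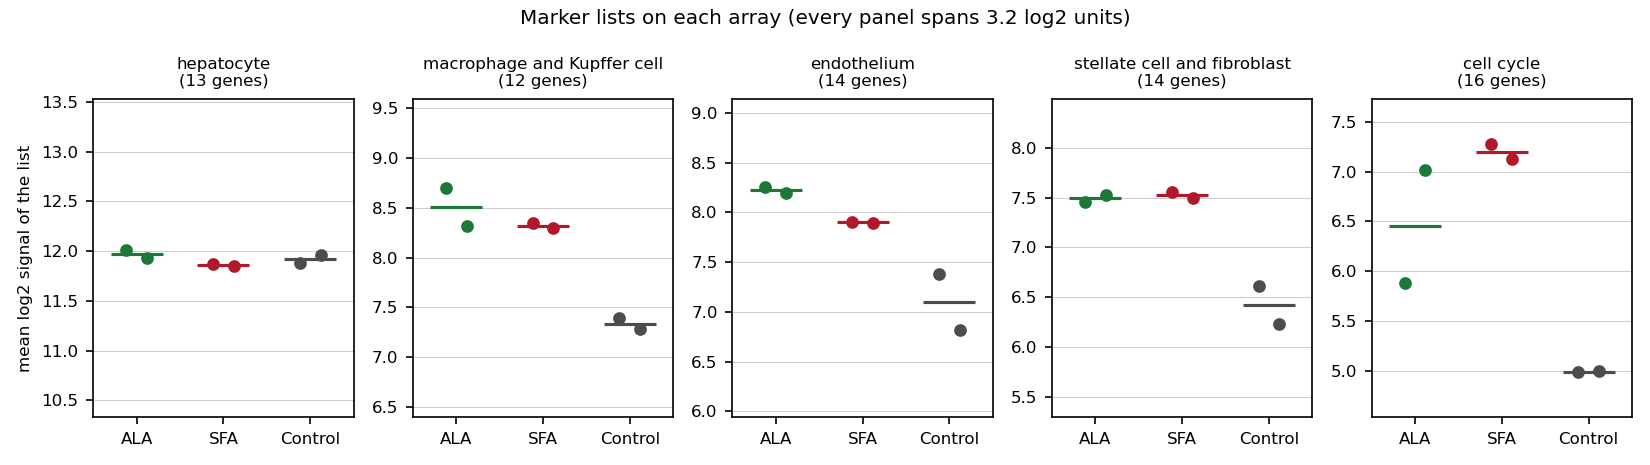
Mean log2 signal (vertical axes, every panel spanning the same range) of the tested genes of 5 marker lists on the ALA, SFA and Control arrays, with 1 point per array and a bar at the mean. The hepatocyte list is level at about 12, and the other lists are higher on all ALA and SFA arrays than in the Control pools. The cell cycle and stellate cell lists hold genes that passed the signal filter only through their ALA and SFA arrays.

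By the root mean square difference between log2 profiles over the 6 arrays, each centred on its own mean, the genes most like Igfbp3 were Fabp4 at 0.13, Sparc at 0.14 and Mest at 0.15. Fabp4 encodes a lipid carrier of fat and endothelial cells, Sparc a matrix protein, and Mest is an imprinted gene. Those most like Igf2 were Mcm7, a replication helicase gene, at 0.19, Plppr1 at 0.20 and Cd209f at 0.20. Those most like Igf1r were Apobec3 at 0.060, Jade2 at 0.081 and Med27 at 0.085.

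Of 16 other binding proteins and regulators of IGF availability 8 were tested, and 4 rose on ALA and 5 on SFA, with 0 lower, where 5.11% and 6.62% of all tested genes rose. Their median log2 difference was 0.80 on ALA and 0.93 on SFA, against -0.012 and -0.050 over all tested genes. The remaining genes of the list were below the signal minimum or had no probe of their own, among them the IGFBP protease genes Pappa and Pappa2. Of the tested genes, Igfbp5, Igfbp6, Stc1 and Igf2bp3 had Control means from 4.36 to 4.79, below the signal minimum. They passed the filter through their ALA and SFA arrays, so the filter favoured rises in these counts and medians.

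Igfbp5, which lies next to Igfbp2 on chromosome 1 and encodes a binding protein held in the matrix, read 5.71 and 6.31 in the ALA pools, 6.51 and 6.15 in the SFA pools and 5.03 and 4.56 in the Control pools. It rose by 1.22 on ALA (adjusted p = 0.0333) and by 1.54 on SFA (adjusted p = 0.0127 in limma) on the log2 scale, whereas its neighbour Igfbp2 did not pass, and the difference between the neighbours was not tested. Control array 2 lay near the level of probes with little or no target, so the size of the Igfbp5 rise is uncertain. Igfbp7, a related gene of vascular cells with low affinity for IGFs, rose by 1.17 on ALA (adjusted p = 0.046) and by 1.18 on SFA (adjusted p = 0.0343). The matrix protease gene Mmp2 rose by 1.87 on ALA (adjusted p = 0.00246) and by 1.83 on SFA (adjusted p = 0.00181). Stc1, whose product inhibits the protease PAPP-A, had a log2 difference of 0.42 on ALA (adjusted p = 0.103) and rose by 0.64 on SFA (adjusted p = 0.0277). Its Control values of 4.57 and 4.79 were also near that level.

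Igf2bp3 encodes an RNA-binding protein of fetal tissues named for its binding to Igf2 transcripts. It read 6.74 and 6.92 in the ALA pools, 7.30 and 6.96 in the SFA pools and 4.20 and 4.53 in the Control pools. All ALA and SFA arrays were above both Control arrays, which lay near the level of Y-linked genes in pools without Y-linked signal, so the size of the rise is uncertain. On the log2 scale it was 2.46 on ALA (adjusted p = 0.00246) and 2.77 on SFA (adjusted p = 0.00108 in limma).

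**Figure D5:**
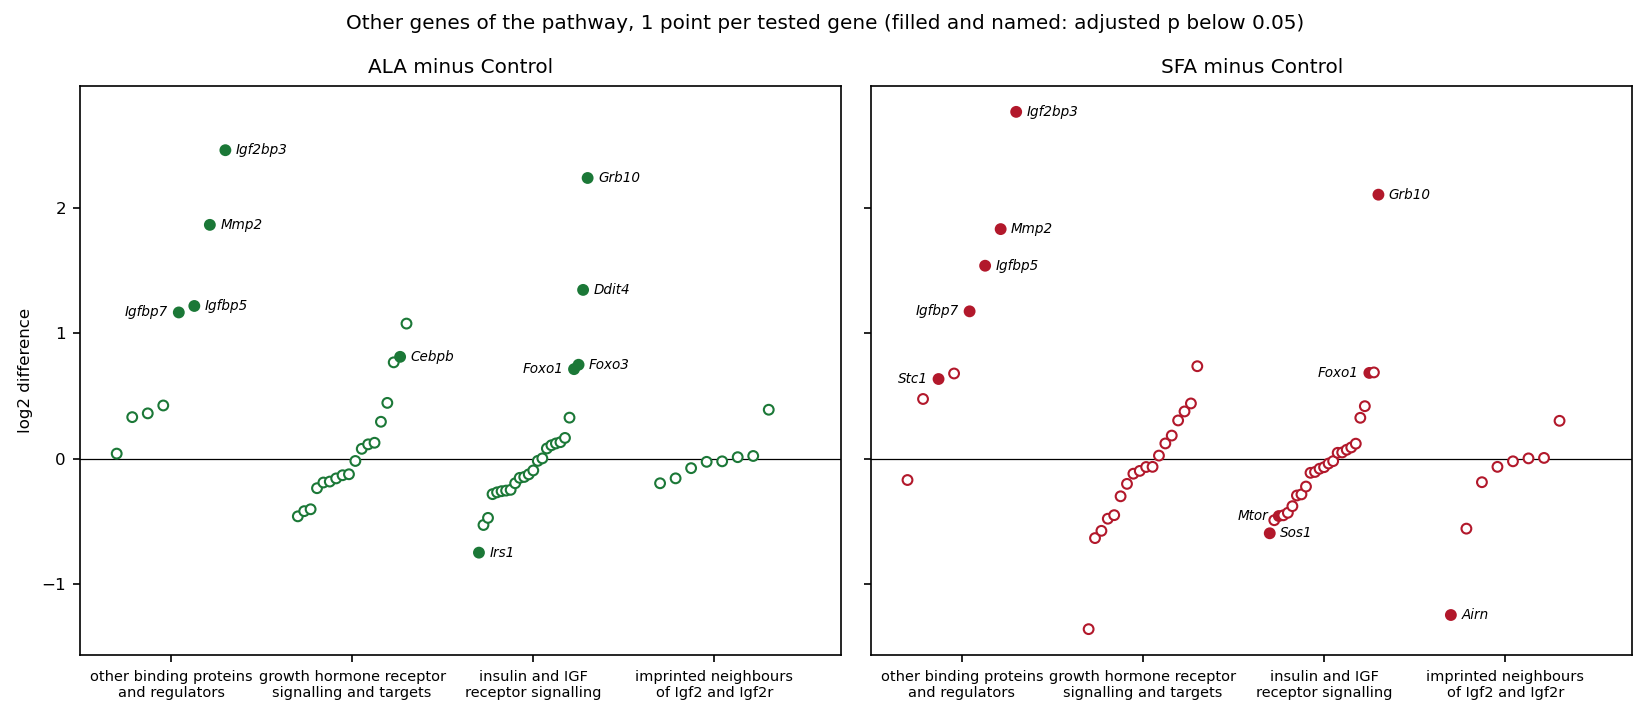
Log2 differences (vertical axis) of the tested genes in 4 lists around the IGF axis for each diet minus Control, with 1 point per gene and filled, named points where the adjusted p was below 0.05. The called genes of the first list all lie above 0, and most genes of the other lists lie near 0.

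Of 18 tested signalling and target genes of the growth hormone receptor, 1 rose on ALA, Cebpb, where 5.11% of all tested genes rose. On SFA 0 were called in limma, against 13.8% of all tested genes, and 4 had an unadjusted p below 0.05, against 31.9%. Cebpb, a transcription factor gene of the liver, rose by 0.81 on ALA (adjusted p = 0.0324 in limma) and differed by 0.30 on SFA (adjusted p = 0.253). Socs2, an inhibitor gene induced by growth hormone, read 9.66 and 8.94 in the ALA pools, 8.94 and 8.98 in the SFA pools and 8.75 and 7.70 in the Control pools, and did not pass on either diet. Onecut1, a hepatocyte factor gene that responds to growth hormone, read 9.39 and 7.97 in the ALA pools, 6.69 and 6.41 in the SFA pools and 7.74 and 8.08 in the Control pools. It did not pass against Control on either diet, and its ALA duplicates were farther apart than its SFA and Control arrays.

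Among 25 tested genes of insulin and IGF receptor signalling, 4 rose and 1 fell on ALA, and 2 rose and 2 fell on SFA. Over all tested genes 5.11% rose and 2.82% fell on ALA, and 6.62% rose and 7.15% fell on SFA. Grb10, an imprinted adaptor gene whose product restrains both receptors, read 7.21 and 7.73 in the ALA pools, 7.37 and 7.30 in the SFA pools and 5.27 and 5.19 in the Control pools. All ALA and SFA pools stood above both Control pools, and Grb10 rose by 2.24 on ALA (adjusted p = 0.00282) and by 2.11 on SFA (adjusted p = 0.00284 in limma) on the log2 scale. Foxo1, a transcription factor gene whose product insulin and IGF signalling excludes from the nucleus, rose by 0.71 on ALA (adjusted p = 0.035) and by 0.68 on SFA (adjusted p = 0.0303). Its relative Foxo3 rose by 0.75 on ALA (adjusted p = 0.0439) and differed by 0.33 on SFA (adjusted p = 0.236). Ddit4, which encodes an inhibitor of the growth kinase complex mTORC1, rose by 1.35 on ALA (adjusted p = 0.0217) and differed by 0.69 on SFA (adjusted p = 0.0978).

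Of the genes of this list that fell, Irs1, a docking protein gene of both receptors, fell by 0.75 on ALA (adjusted p = 0.0396) and differed by -0.49 on SFA (adjusted p = 0.0904 in limma). Irs1 had 2 probes, and only the brighter was used. Sos1, an activator gene of RAS, differed by -0.47 on ALA (adjusted p = 0.073) and fell by 0.60 on SFA (adjusted p = 0.0303). Mtor, the growth kinase gene, differed by -0.15 on ALA (adjusted p = 0.479) and fell by 0.46 on SFA (adjusted p = 0.0465). None of these genes was called between ALA and SFA, so a call on 1 diet alone is no evidence that the diets differ. The median log2 difference of the 25 genes was -0.095 on ALA and -0.069 on SFA.

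Of 8 tested imprinted genes that neighbour Igf2 and Igf2r, 0 were called on ALA in limma, against 7.93% of all tested genes, and 1 had an unadjusted p below 0.05, against 24.7%. On SFA 1 fell, against 7.15% of all tested genes. That gene was Airn, whose noncoding transcript runs antisense to Igf2r and is known to silence its paternal allele. Airn read 6.75 and 7.50 in the ALA pools, 5.61 and 6.30 in the SFA pools and 7.19 and 7.21 in the Control pools. Both SFA arrays were below all others, and it fell by 1.25 on SFA against Control (SE 0.29, adjusted p = 0.0368 in limma) with a log2 difference of -0.076 on ALA (adjusted p = 0.902). The growth inhibitor gene Cdkn1c differed by 0.39 on ALA and 0.30 on SFA, and neither passed.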

How the data were processed

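Liver RNA was hybridised to 6 Affymetrix arrays, 2 per maternal diet. The deposited values are log2 signals, for which the submitters' processing notes name RMA and Partek 6.6. The log base was taken from their range of 1.98 to 13.1. Settings and annotation version are not given in the sources used here. Nothing was rescaled.

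Of 35556 probes, 21789 had 1 symbol in the platform annotation and 1621 had several, which were left out. Each gene was represented by its brightest probe, and genes with a mean log2 signal of at least 5 were tested. All 10 symbols matched RefSeq of GRCm38.p6 by Entrez identifier. Tests used limma 3.58.1 in R 4.3.3, with a mean per diet over all 6 arrays (3 residual degrees of freedom), two-sided moderated tests and Benjamini-Hochberg adjustment over 10977 genes. P-values measure only the spread between these arrays, which may be technical, and the small number of arrays limits precision.

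The 10 genes and the lists were chosen with earlier results of these data known. Named genes are the 10, every gene of 4 pathway lists called against Control, up to 6 others per list with the largest differences, and the 3 genes closest in profile to each of the 10 that passed the F test. Same-numbered replicates were not stated to share a litter or day. Their deviations correlated across groups with r from -0.030 to 0.023, so no pairing was used. Alternatives changed the normalization, signal filter, probe rule, variance estimation (trend and robust together), arrays and replicate block.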

Additional observations from a re-analysis of the deposited data

How the results depend on the processing

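The 4 called differences (Igfbp3 on both diets, Igf2 on SFA and Igf1r on ALA) kept their direction in all 59 alternative fits and their call in 54. The 5 losses were those of leaving out single arrays given above. Of 26 differences not called, 6 became called among 388 alternative fits, and 13 fits changed a sign, none of a called value. For ALA against Control, 2 of the 10 genes were called, 1 with a signal minimum of 6, which leaves out Igf1r, 4 with trended and robust variance estimation together, and 1 to 2 with an array left out. For SFA against Control 2 were called, and 1 to 3 with an array left out. Trended and robust estimation called 1 between ALA and SFA. The F test called 3, but 5 with trended and robust estimation, 2 with no filter, 2 with a minimum of 6, and 1 to 3 with an array left out. Over all genes, 168 were called between ALA and SFA, but 100 after 75th percentile centring, 68 after quantile normalization, 76 after cyclic loess, 32 with no filter, 293 with a minimum of 6, 421 with trended and robust estimation, 11 in a fit of the 4 arrays compared, 0 with the replicate block in limma, and 0 to 36 with an array left out. For ALA against Control 871 genes were called, 448 in the fit of 4 arrays and 267 to 475 with an array left out. For SFA against Control the 1512 became 245 to 1428 with an array left out, and by the F test the 1477 became 318 to 988. The cause of these changes was not tested. Some of these fits also had fewer arrays, or another number of genes tested.

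The replicate block, which rests on shared numbers alone, called Igf2 on ALA as well (adjusted p = 0.0461) and changed no other call of the 10 genes. After 75th percentile centring Igf1 was at 0.075 and Igfbp4 at 0.029 on SFA against Control, and Igf1 at -0.020 for ALA against SFA. Igfbp3 for ALA against SFA was at 0.011 after quantile normalization and from -0.12 to 0.061 with an array left out. Leaving out an array also changed the sign of Igf1 (-0.059 to 0.20) and Igfbp2 (-0.29 to 0.37) for ALA against Control and of Igf1r (-0.029 to 0.30) for SFA against Control. For ALA against SFA it did so for Igf1 (-0.039 to 0.22), Igfbp2 (-0.51 to 0.16) and Igfals (-0.64 to 0.10).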

Other observations

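The microRNA gene Mir483 lies within the span of Igf2, on the same strand, and its probe (10569356) was looked up after the Igf2 values had been seen. It read 5.41 and 5.72 in the ALA pools, 4.98 and 5.36 in the SFA pools and 6.30 and 6.40 in the Control pools. Both diets were below Control, the opposite order to Igf2. Mir483 fell by 0.79 on ALA (SE 0.18, adjusted p = 0.0433) and by 1.19 on SFA (SE 0.18, adjusted p = 0.00976 in limma) on the log2 scale, and ALA and SFA differed by 0.40 (adjusted p = 0.237). A probe for a gene this short need not measure the mature microRNAs, which are shown from RefSeq on GRCm38.p6 with the seed, bases 2 to 8, in capitals.
mmu-miR-483-3p (chr7:142654932-142654952, minus strand): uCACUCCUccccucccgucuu
mmu-miR-483-5p (chr7:142654968-142654989, minus strand): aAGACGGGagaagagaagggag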
